A study of Mus musculus with 6 samples.

Results

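The 484 loci described here were not taken from a gene annotation. They are entries of the deposited gene count table whose identifiers carry the prefix given to loci assembled from the reads, and they are those with at least 60 counts summed over the 6 libraries. The table held 41972 entries, of which 41096 were annotated and 876 were assembled loci. Of the 876, 392 had fewer than 60 counts, among them 64 with 0 counts. The loci are called below by the number in their identifier and, where the deposited description gives one, by the protein their sequence resembles.

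The RNA came from bone-marrow-derived macrophages, which are grown from marrow cells with macrophage colony-stimulating factor. Marrow of 6-week-old male C57BL/6 mice of wild-type genotype was cultured for 6 days with 20% serum and 30% medium conditioned by L-929 cells, a fibroblast line that secretes the factor. The cells were then kept for 6 h with extracellular vesicles (EVs, membrane-bound particles shed by cells) of Aspergillus flavus, a mould, at 20 µg per well, or with phosphate-buffered saline (PBS). The 3 groups were EVs of LD-F1, EVs of LD-F1_b and PBS, with 2 biological replicates each. The labels call LD-F1 and LD-F1_b strains and give all groups, PBS included, the treatment co-culture; the sources used here do not say what sets LD-F1_b apart from LD-F1. Whether the replicates came from separate mice is not stated, so p-values measure the spread between these samples.

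An assembler that is guided by a reference joins overlapping spliced reads into transcript models and reports those that match no annotated gene. Such models can be real genes that an annotation lacks, pieces of a gene on a contig that was never placed on a chromosome, processed pseudogenes (copies of spliced messages pasted back into the genome), long noncoding RNAs, or retroelements. LINE-1 elements, which encode the proteins ORF1 and ORF2, and the remains of retroviruses, which encode Gag, Pol and Env, are retroelements with coding sequence in the mouse genome. In macrophages, receptors for microbial products act through the transcription factor NF-kB and through interferons, and many of their target genes are used as markers of the response.

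Libraries held 13722215 to 15277997 counts, so that 3 counts in a library equalled 0.189 to 0.225 CPM (counts scaled by the library's total and by its TMM factor). The annotated macrophage markers Adgre1, Cd14, Cd68 and Csf1r averaged 392.9, 422.4, 644.8 and 1316 CPM in the PBS group, while the entries of Itgam and Mertk averaged 0.159 and 0.547 CPM there. Markers of neutrophils, B cells, T and NK cells, fibroblasts, erythroid cells and mast cells, summed by list, stayed at or below 1.499 CPM in each library, and all 3 mast cell markers were at 0 counts. The neutrophil sum was 0.457 to 0.504 CPM with PBS, 1.209 to 1.499 with LD-F1 EVs and 0.691 to 0.834 with LD-F1_b EVs. It rested on few counts of S100a8 (3 to 13 per library), Camp and Mpo, while the other 5 of the 8 markers had 0 counts. None of the 8 passed the filter for testing, and the part of this sum in the results was not tested. In bulk RNA, fewer cells of a type and less RNA per cell cannot be told apart.

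A few of the loci took most of the counts. The 484 loci held 1742857 counts over the 6 libraries, 20.2% of them in the first, 57.5% in the first 5 and 71.2% in the first 10, while the median locus had 265.5 counts (60 to 352265). The summed length of the exons of a locus had a median of 1201 bases (210 to 15553), and 385 of the 484 were spliced. Locus 824, which resembles Cox1 (cytochrome c oxidase subunit 1, encoded in the mitochondrial genome), lay on an unplaced scaffold and had 3630 and 3854 CPM with PBS, 4306 and 3595 with LD-F1 EVs and 4483 and 4350 with LD-F1_b EVs. Its groups overlapped for LD-F1 EVs, and it was not called in any comparison. The annotated entries matched by that gene name had 0 counts.

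The 10 loci with the highest mean CPM resembled genes of several kinds. Besides locus 824 these were loci 798 (Lyz2, lysozyme, which cuts bacterial cell walls and is a standard macrophage marker), 833 (Ftl1, the light chain of the iron store ferritin), 33 (Nlrc3, a member of the NLR family of intracellular sensors), 527 (Eef2, an elongation factor of translation), 97 (Lyz1, a second lysozyme), 585 (Atp6v0c, a subunit of the proton pump of lysosomes), 381 (Pgam1, an enzyme of glycolysis), 295 (H2-D1, a class I histocompatibility antigen) and 157 (Hsp90aa1, a chaperone). No annotated entry of the table carried the name Lyz2, so locus 798, at the edge of an unplaced scaffold, was its only counterpart. For locus 527 the annotated Eef2 entry had 297807 counts against 81661 at the locus, and for locus 585 the annotated Atp6v0c entry had 328 counts against 57809. Reads of such near-identical copies may have been split between entries, and the sources used here do not give how reads that fit several places were counted, so levels of these loci are uncertain.

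Of the 484 loci, 220 had a description that gives a protein and 264 had none. By words of the description, 34 fell in the class retroelement, 28 in signalling (a class that also caught metabolic kinases), 20 in ribosome and translation, 17 in immune, 14 in enzyme, 13 each in ubiquitin and proteolysis and in zinc finger and transcription, 10 in cytoskeleton, 7 in transport, 3 in histone and chromatin and 61 in none of these. Positions in the table follow the C57BL/6NJ assembly. On it 428 loci lay on chromosomes and 56 on unplaced scaffolds that held no annotated entry. The span of 1 locus overlapped an annotated entry on the same strand (locus 240, which resembles tubulin alpha-1A), 237 lay within 10 kb of one and 190 lay farther away. Of the 180 loci whose gene name could be looked up, 41 had a name that no annotated entry carried, 30 had more counts than the annotated entry of that name and 109 had fewer.

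The loci together held a small share of each library. It was 1.86% and 1.88% of counts with PBS (exact 95% binomial intervals 1.85% to 1.86% and 1.87% to 1.89%, which cover counting error only), 1.93% and 2.00% with LD-F1 EVs, and 2.21% and 2.08% with LD-F1_b EVs. Both PBS libraries lay below the other 4. With 2 libraries against 2, an exact test cannot reach a p below 0.05, and none was run. Without the 5 most abundant loci the shares were 0.815% and 0.807% with PBS, 0.845% and 0.905% with LD-F1 EVs and 0.866% and 0.852% with LD-F1_b EVs.

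**Figure D1:**
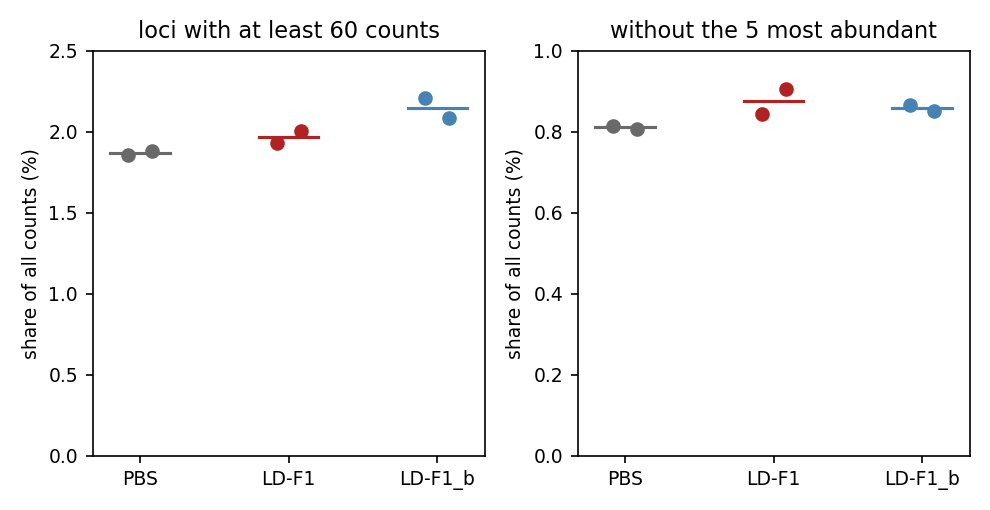
Share of all counts (%, from 0) in the 484 assembled loci, left, and without the 5 most abundant, right, with 1 point per library and a line at the group mean (2 libraries per group). The PBS libraries, at 1.86% and 1.88%, lie below the other 4 on the left and, at 0.815% and 0.807%, on the right.

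With LD-F1 EVs, 50 of the 484 loci were higher than with PBS and 17 lower. Loci that resemble Nfkbiz, Sod2, Oas1a, Lyz2, H2-D1, Psme2 and Ifi203 were among those higher; they are singled out here from the calls and do not stand for a tested group. Other loci that resemble genes of the same field were not called, such as locus 33 (Nlrc3, -0.02), locus 329 (Trem1, 0.62) and locus 750 (Tgtp1, -0.70), and locus 107 (Clec10a) was lower. A locus was called when its adjusted p was below 0.05 in edgeR's quasi-likelihood F test, adjusted by Benjamini-Hochberg over all 12740 entries tested, in which all 484 loci passed the filter on low counts. The shares called, 10.3% higher and 3.51% lower, stand beside 11.4% higher and 9.87% lower over all entries tested. The median log2 fold change was 0.16 over the loci and 0.01 over all entries. The counts moved with single libraries. They fell without either PBS library and rose without LD-F1 replicate 1, as did the calls over all entries tested. Scaling by library totals alone gave 38 higher and 27 lower, and among all entries called, the share higher went from 53.5% to 33.6% as the median of all entries moved from 0.01 to -0.10.

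The Nfkbiz locus had the smallest adjusted p of the 484 loci against PBS with either EV. Nfkbiz encodes IκBζ, a nuclear protein induced by Toll-like receptors that helps NF-kB switch on a second set of genes. Locus 277 spans chromosome 16 from 56432165 to 56461834 on the minus strand, and no annotated entry carried its name. It had 9.53 and 9.26 CPM with PBS, 59.4 and 52.5 with LD-F1 EVs and 44.9 and 36.4 with LD-F1_b EVs. All 4 EV libraries were far above both PBS libraries, and the 2 EV groups did not overlap. The level was 5.95-fold higher with LD-F1 EVs (2.57 ± 0.14 on the log2 scale, value ± SE as in all that follow, 2 libraries in each group, adjusted p = 3.12e-07) and 4.32-fold higher with LD-F1_b EVs (2.11 ± 0.14, adjusted p = 3.65e-06). Both calls held under all alternatives tried, which were DESeq2, other scalings and filters, other fits, and leaving out each library in turn. Its annotated neighbour Nxpe3, 4452 bases away on the same strand, went the other way with LD-F1 EVs (-0.45 ± 0.14, adjusted p = 0.0351).

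Manganese superoxide dismutase (Sod2), the mitochondrial enzyme that removes superoxide and a known NF-kB target, appeared as 2 loci. Locus 283 on chromosome 17, from 11102937 to 11105711 on the plus strand, matched the N-terminal hairpin domain, and locus 777, on an unplaced scaffold, matched the C-terminal domain. Locus 777 had 52.3 and 48.8 CPM with PBS, 120 and 111 with LD-F1 EVs and 84.8 and 69.3 with LD-F1_b EVs. Locus 283 had 31.8 and 29.7 CPM with PBS, 63.8 and 60.7 with LD-F1 EVs and 49.5 and 41.5 with LD-F1_b EVs. In both loci the groups stood in the same order without overlap, PBS lowest and LD-F1 EVs highest. The changes with LD-F1 EVs were 1.19 ± 0.11 (adjusted p = 1.54e-05) for locus 777 and 1.02 ± 0.12 (adjusted p = 7.02e-05) for locus 283, and both calls held under all alternatives. With LD-F1_b EVs locus 777 was higher by 0.61 ± 0.11 (adjusted p = 0.00473) and locus 283 by 0.57 ± 0.12 (adjusted p = 0.00871), both lost without LD-F1_b replicate 1 or PBS replicate 2, and locus 283 also without PBS replicate 1. The pieces may stem from 1 gene and are then not independent.

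Oas1a encodes an oligoadenylate synthase, which is induced by interferon and senses double-stranded RNA. Loci 560 and 559 on the minus strand of chromosome 5 both resemble it, and their spans overlap. Locus 560 had 20.2 and 18.5 CPM with PBS, 37.9 and 40.8 with LD-F1 EVs and 33.5 and 26.6 with LD-F1_b EVs, and it was higher with LD-F1 EVs (1.02 ± 0.14, adjusted p = 0.000239, under all alternatives) and with LD-F1_b EVs (0.63 ± 0.14, adjusted p = 0.0119, lost without LD-F1_b replicate 1 or either PBS library). Locus 559, at 1.83 and 3.28 CPM with PBS and 5.62 and 5.26 with LD-F1 EVs, was called at 1.09 ± 0.33 (adjusted p = 0.0335), a call that ended with DESeq2, without either or both LD-F1_b libraries or without PBS replicate 1. Ifi203 belongs to a family of interferon-induced DNA-binding proteins. Locus 826, a scaffold locus of 415 bases, had 0.326 and 0.441 CPM with PBS and 2.17 and 0.996 with LD-F1 EVs (2.01 ± 0.63, adjusted p = 0.0401). That call was lost in a fit of only these groups, and on leaving out any single library other than LD-F1 replicate 2, and the change ranged from 1.35 to 2.47 over all alternatives. The annotated Ifi203 entry was itself higher (1.73 ± 0.22, adjusted p = 0.000137).

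Loci for antigen presentation and surface receptors were called in both directions. Locus 295 (H2-D1), from 36772436 to 36779310 on the plus strand of chromosome 17, had 279 and 277 CPM with PBS and 352 and 413 with LD-F1 EVs (0.46 ± 0.09, adjusted p = 0.00367), lost without either PBS library. Locus 325, which also resembles H2-D1 and overlaps locus 295 on the opposite strand, was at 0.17 and not called. The annotated entry matched to that name was not called either (0.18 ± 0.46, adjusted p = 0.832). Locus 751 (Psme2, a part of the proteasome activator that favours peptides for class I molecules) had 30.2 and 24.1 CPM with PBS and 38.5 and 42.2 with LD-F1 EVs (0.58 ± 0.14, adjusted p = 0.00954), lost without PBS replicate 2; its description also names an interferon-inducible GTPase. Locus 60, which resembles human LILRB3, an inhibitory receptor of myeloid cells, had 1.24 and 1.83 CPM with PBS and 9.97 and 6.12 with LD-F1 EVs (2.38 ± 0.34, adjusted p = 0.000359). It lies on the plus strand of chromosome 10, from 52180919 to 52185448, with 5051 bases between it and a LINE-1 locus that was also higher, locus 86. In the other direction, locus 107 (Clec10a, a lectin that binds galactose-type sugars) fell by 2.03 ± 0.54 (adjusted p = 0.0193), from 1.89 and 2.02 CPM with PBS to 0.300 and 0.640. It starts 220 bases from the annotated Clec10a entry on the same strand, which was lower too (-0.68 ± 0.17, adjusted p = 0.0128). The call on locus 107 ended without LD-F1 replicate 1 or either PBS library, and its change ranged from -2.67 to -1.60 over all alternatives. Of the 17 loci of the immune class, 4 were higher and 1 was lower (23.5% and 5.88%, beside 11.4% and 9.87% of all entries tested).

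The promoters of the genes that 4 of these loci resemble are shown because letters of known response elements can be read in them. They are the RefSeq sequences of build GRCm38.p6, from 250 bases before to 50 after the start site; the build differs from that of the count table. Of 180 loci with a gene name, 126 matched a promoter by symbol; Nfkbiz is not among them. Capitals mark matches, on either strand, to the NF-kB consensus motif (Sod2, H2-D1) or to the interferon-stimulated response element GAAANNGAAA (Oas1a, Ifi203).
Sod2 (chr17:13007589-13007888, plus strand): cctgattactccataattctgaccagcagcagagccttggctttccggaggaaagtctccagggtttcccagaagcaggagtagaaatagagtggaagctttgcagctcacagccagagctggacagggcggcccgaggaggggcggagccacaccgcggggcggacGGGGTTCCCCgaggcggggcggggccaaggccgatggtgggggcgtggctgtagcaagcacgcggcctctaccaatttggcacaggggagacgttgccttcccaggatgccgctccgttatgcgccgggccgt
H2-D1 (chr17:35262844-35263143, plus strand): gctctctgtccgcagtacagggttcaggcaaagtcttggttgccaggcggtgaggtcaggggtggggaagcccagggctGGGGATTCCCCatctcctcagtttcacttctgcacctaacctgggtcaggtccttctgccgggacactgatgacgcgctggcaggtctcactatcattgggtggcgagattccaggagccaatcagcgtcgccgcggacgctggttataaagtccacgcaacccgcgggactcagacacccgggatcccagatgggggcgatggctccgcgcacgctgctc
Oas1a (chr5:120907476-120907775, minus strand): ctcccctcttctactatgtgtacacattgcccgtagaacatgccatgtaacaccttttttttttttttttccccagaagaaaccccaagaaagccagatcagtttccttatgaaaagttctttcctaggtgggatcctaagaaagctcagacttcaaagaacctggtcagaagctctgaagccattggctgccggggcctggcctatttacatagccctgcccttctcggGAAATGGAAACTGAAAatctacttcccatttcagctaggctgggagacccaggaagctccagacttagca
Ifi203 (chr1:173942443-173942742, minus strand): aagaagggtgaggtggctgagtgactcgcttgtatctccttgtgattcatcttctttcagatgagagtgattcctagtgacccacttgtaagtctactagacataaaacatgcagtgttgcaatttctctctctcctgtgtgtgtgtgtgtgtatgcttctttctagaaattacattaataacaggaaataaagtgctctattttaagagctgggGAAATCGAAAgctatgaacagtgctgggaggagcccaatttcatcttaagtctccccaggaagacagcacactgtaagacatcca
The NF-kB match begins 83 bases before the Sod2 start; in H2-D1 there are 2 overlapping matches, from 171 bases before the start. The 2 response elements of Oas1a overlap and begin 20 and 14 bases before its start. That of Ifi203 begins 35 bases before the printed start, 1 of 2 starts of this gene. The other Ifi203 start held 0 matches to GAAANNGAAA and 1 to the NF-kB consensus, 107 bases before it. The NF-kB consensus was found in 8.46% and GAAANNGAAA in 3.44% of all 32851 promoters of this length, or in 9.55% and 3.99% of 27025 genes. Of 17 matched genes with a locus higher with LD-F1 EVs, 9 held the NF-kB consensus and 2 held GAAANNGAAA. The 9 were Ak4, Eef1a1, H2-D1, Ifi203, Pgk1, Rpl6, Slc39a1, Sod2 and Vma21. Of 5 genes with a lower locus these counts were 0 and 1. The share among matched genes whose loci were not called was not taken. Promoters of 1 chromosome were left out of these gene counts but not of the shares over all promoters. A match is a description of letters, these 4 promoters were picked after the matches were seen, and a locus elsewhere in the genome, such as a processed copy, does not share the promoter of the gene it resembles.

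The lysozyme locus 798 had 2537 and 2526 CPM with PBS, 2836 and 3527 with LD-F1 EVs and 3344 and 3424 with LD-F1_b EVs. All 4 EV libraries were above both PBS libraries, though the LD-F1 libraries were wide apart. It was called at 0.33 ± 0.10 with LD-F1 EVs (adjusted p = 0.0376), but not with library totals alone (0.22), a fit of those groups only, or without a PBS or an LD-F1_b library. Locus 157 (Hsp90aa1) was called at 0.35 ± 0.10 (adjusted p = 0.0228) and lost the call in the same settings.

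Loci for metabolism and growth were among the rest. Loci 847 and 70 both resemble Btg1, an antiproliferative protein; they lie on chromosomes X and 10 and rose by 0.70 ± 0.11 and 0.78 ± 0.10 with LD-F1 EVs (adjusted p = 0.00053 and 0.000137), from 62.1 and 67.3 CPM to 96.3 and 115, and from 55.3 and 57.9 to 101 and 92.6. No PBS library of either locus reached the lowest library of the LD-F1 group. The annotated entry matched by that name, 1764 bases from locus 847, had 0 counts. Locus 851 (Vma21, an assembly factor of the lysosomal proton pump) had 22.1 and 24.1 CPM with PBS and 43.7 and 46.2 with LD-F1 EVs (0.96 ± 0.12, adjusted p = 0.000112), while the annotated entry of that name had 6 counts in all. Locus 353 (Pgk1, phosphoglycerate kinase of glycolysis) rose by 0.83 ± 0.13 (adjusted p = 0.000622), beside 0.73 ± 0.09 for the annotated Pgk1 entry. Of 20 loci of ribosome and translation, 3 were higher (2 of 3 loci for Eef1a1, at 0.37 ± 0.09 in locus 388 and 0.63 ± 0.13 in locus 400, and 1 of 2 for Rpl6, at 0.36 ± 0.11 in locus 361) and 0 lower. Among all entries tested, 11.4% were higher and 9.87% lower with LD-F1 EVs. The calls on loci 388 and 361 were lost with library totals alone and without either PBS library.

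The largest change with LD-F1 EVs belonged to a locus without a protein. Locus 20, spliced, spans chromosome 1 from 163617027 to 163664639 on the plus strand; the nearest annotated entry is Lamc1, 16465 bases away on the opposite strand. It had 1.04 and 0.378 CPM with PBS, 9.67 and 8.61 with LD-F1 EVs and 5.49 and 5.87 with LD-F1_b EVs. The 3 groups did not overlap. The level was 12.8-fold higher with LD-F1 EVs (3.68 ± 0.35, adjusted p = 1.69e-05) and 7.96-fold higher with LD-F1_b EVs (2.99 ± 0.37, adjusted p = 0.000276), called under all alternatives. PBS counts are low, so the fold depends on single libraries. It ranged from 8.69 to 23.6 with LD-F1 EVs and from 5.39 to 14.6 with LD-F1_b EVs. The fold was lowest without PBS replicate 2 and highest without PBS replicate 1.

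Other loci without a protein followed it. Locus 324, on the minus strand of chromosome 17 from 36710543 to 36722681, had 1.04 and 1.51 CPM with PBS and 7.64 and 4.98 with LD-F1 EVs (2.29 ± 0.34, adjusted p = 0.000505). It lies 4353 bases from Nfkbil1 on the same strand, in the histocompatibility region, and Nfkbil1 was higher by 0.67 ± 0.14 (adjusted p = 0.00573). Locus 274, on the minus strand of chromosome 16 from 50067814 to 50095947, 13593 bases from Cd47, had 0.848 and 1.58 CPM with PBS and 6.30 and 4.41 with LD-F1 EVs (2.13 ± 0.36, adjusted p = 0.00115). Neither locus had an EV library as low as its higher PBS library. Of the 264 loci without a protein, 20 were higher and 7 lower (7.58% and 2.65%), against 30 and 10 of the 220 with one (13.6% and 4.55%). Over all entries tested these shares were 11.4% and 9.87%.

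Some calls of large size rested on few counts. Locus 429 (Ak4, a mitochondrial adenylate kinase) had 0.392 and 0.189 CPM with PBS and 1.20 and 3.34 with LD-F1 EVs (2.94 ± 0.68, adjusted p = 0.00875), lost without LD-F1 replicate 2 or PBS replicate 2, with a range from 2.02 to 3.53 over all alternatives. The annotated Ak4 entry, with 10304 counts, was higher by 0.46 ± 0.10 (adjusted p = 0.00475). Locus 2 (Camsap1, which caps the minus ends of microtubules) had 0.392 and 0.441 CPM with PBS and 2.77 and 1.64 with LD-F1 EVs (2.38 ± 0.54, adjusted p = 0.00823), while the annotated Camsap1 entry was at 0.11 ± 0.12 (adjusted p = 0.582). Locus 397, named for the transcript BRD3OS, had 0.457 and 0.441 CPM with PBS and 1.65 and 2.21 with LD-F1 EVs (2.08 ± 0.53, adjusted p = 0.0148). It lies 1432 bases from Brd3 on the opposite strand, and Brd3, a bromodomain protein of chromatin, was lower (-0.40 ± 0.12, adjusted p = 0.029). The calls on loci 2 and 397 ended without either PBS library, and that on locus 397 also without LD-F1 replicate 2.

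Among the 17 loci that were lower with LD-F1 EVs, 2 lay side by side. Locus 474 (Syt11, a synaptotagmin that acts in vesicle traffic of macrophages) had 10.8 and 8.76 CPM with PBS, 3.82 and 2.92 with LD-F1 EVs and 4.17 and 4.84 with LD-F1_b EVs. It spans chromosome 3 from 92231306 to 92268756 on the minus strand. Locus 473, with no protein, ends 48 bases before it on the same strand and had 7.18 and 5.29 CPM with PBS, 2.32 and 2.77 with LD-F1 EVs and 1.88 and 3.18 with LD-F1_b EVs. In both, the EV libraries lay below both PBS libraries. With LD-F1 EVs locus 474 fell by 1.54 ± 0.24 (adjusted p = 0.000754) and locus 473 fell by 1.29 ± 0.32 (adjusted p = 0.0124, lost without PBS replicate 1).

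Skp2 is the substrate-binding part of a ubiquitin ligase that removes inhibitors of the cell cycle. Locus 242, on the minus strand of chromosome 15 from 6406554 to 6435016, carried that name alone in the table and had 52.8 and 54.0 CPM with PBS, 37.0 and 36.7 with LD-F1 EVs and 30.7 and 34.7 with LD-F1_b EVs. The PBS libraries were the highest and the 2 EV groups did not overlap. It fell by 0.54 ± 0.11 with LD-F1 EVs (adjusted p = 0.00399, lost without PBS replicate 2) and fell by 0.71 ± 0.11 with LD-F1_b EVs (adjusted p = 0.00138, held under all alternatives). Its neighbour Lmbrd2, 204 bases away on the opposite strand, was not called (-0.30 ± 0.16, adjusted p = 0.225).

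Further lower loci had smaller counts. Locus 123, 1 of 6 loci with a description of the ubiquitin ligase Nedd4, had 1.89 and 2.14 CPM with PBS and 0.375 and 0.569 with LD-F1 EVs (-2.07 ± 0.64, adjusted p = 0.0384, lost without LD-F1 replicate 1 or either PBS library). Another of the 6, locus 534, was higher in the same comparison (0.94 ± 0.16, adjusted p = 0.00118), and so was its neighbour Uso1 (0.60 ± 0.08, adjusted p = 0.000234). Locus 733, with no protein, fell by 1.78 ± 0.43 (adjusted p = 0.0114, lost without PBS replicate 2) and locus 23, with no protein, fell by 1.38 ± 0.39 (adjusted p = 0.0248, lost with DESeq2 or without either PBS library). Locus 724 (Mthfs, an enzyme of folate metabolism) fell by 0.94 ± 0.30 (adjusted p = 0.0446), a call lost with DESeq2, in a fit of only these groups and on leaving out any library other than LD-F1 replicate 1. Locus 28 (Ogfrl1), a name with no annotated entry, had 18.0 and 14.5 CPM with PBS and 8.39 and 10.3 with LD-F1 EVs and fell by 0.79 ± 0.19 (adjusted p = 0.00946, lost without PBS replicate 1).

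**Figure D2:**
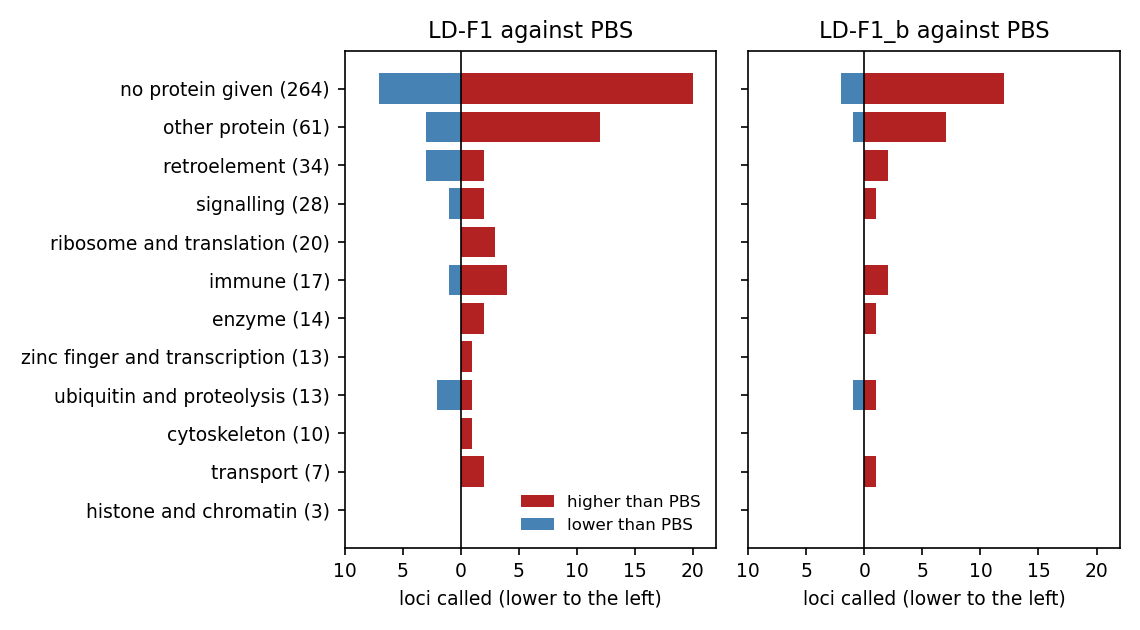
Number of loci called higher (red, to the right) and lower (blue, to the left) than PBS by edgeR, by class of the deposited description, with the number of loci in each class in brackets; left LD-F1 EVs, right LD-F1_b EVs. Loci without a protein hold 20 of the 50 higher calls with LD-F1 EVs and 12 of the 27 with LD-F1_b EVs.

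Retroelement loci did not move one way. The word search put 34 loci in this class, but 3 of them describe NAIP proteins, which are sensors of bacterial flagellin and secretion systems. These descriptions hold the word baculoviral, which the search caught by the letters viral. Without these 3, 31 remained, 13 of LINE-1 and 18 resembling Gag, Pol or Env of retroviruses. None of the 3 was called. Of the 31, 2 were higher and 3 lower with LD-F1 EVs (median log2 fold change -0.04). With LD-F1_b EVs 2 were higher and 0 lower (median 0.04). Over all entries tested, 11.4% were higher and 9.87% lower with LD-F1 EVs, and 6.44% and 4.54% with LD-F1_b EVs. Summed over the 31, the level was 501 and 506 CPM with PBS, 502 and 460 with LD-F1 EVs and 542 and 509 with LD-F1_b EVs, and LD-F1 overlapped PBS. The 13 LINE-1 loci summed to 121 and 119 CPM with PBS, 152 and 141 with LD-F1 EVs and 165 and 146 with LD-F1_b EVs, and the 18 retrovirus-like loci to 380 and 387, 350 and 319, and 377 and 363 CPM. Loci 86 and 412 were split off because they were called higher with both EVs. The other 11 summed to 71.3 and 69.9 CPM with PBS and 62.0 and 60.9 with LD-F1 EVs. With LD-F1_b EVs they summed to 76.4 and 63.8 CPM, which overlapped PBS. The 11 include locus 44, called lower with LD-F1 EVs (-0.68), so the split by calls shapes the direction of their sum. These sums were not tested.

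The 2 LINE-1 loci that were higher were the same with both EVs. Locus 412, on the plus strand of chromosome 2 from 132112379 to 132130296 and 152064 bases from the nearest annotated entry, had 6.199 and 6.3 CPM with PBS, 14.01 and 15.01 with LD-F1 EVs and 14.5 and 18.7 with LD-F1_b EVs. Each EV library was above both PBS libraries. It rose by 1.21 ± 0.19 (adjusted p = 0.000583) and 1.41 ± 0.18 (adjusted p = 0.000414), under all alternatives. Locus 86, on the minus strand of chromosome 10 from 52119379 to 52175867, is a spliced model of 13430 bases and had 43.3 and 42.7 CPM with PBS, 75.9 and 64.6 with LD-F1 EVs and 73.7 and 63.6 with LD-F1_b EVs. It rose by 0.71 ± 0.12 (adjusted p = 0.000924) and by 0.68 ± 0.12 (adjusted p = 0.00271, lost without LD-F1_b replicate 1). Its ORF2 description covers part of a longer model, so reads outside the element count too.

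The retroelement loci that were lower with LD-F1 EVs were of different kinds. Locus 44, a LINE-1 locus on chromosome 1, had 31.0 and 29.8 CPM with PBS and 18.7 and 19.2 with LD-F1 EVs (-0.68 ± 0.13, adjusted p = 0.00331). Locus 636, with the envelope protein of an intracisternal A particle, a mouse retrovirus-like element, had 22.3 and 23.8 CPM with PBS and 14.6 and 16.0 with LD-F1 EVs (-0.59 ± 0.15, adjusted p = 0.0129, lost without either PBS library). Locus 160, with a Gag-Pro-Pol polyprotein, had 11.2 and 8.06 CPM with PBS and 5.25 and 4.34 with LD-F1 EVs (-1.0 ± 0.23, adjusted p = 0.0093, lost without PBS replicate 1). It lies 218 bases from Ncapg2, a condensin subunit on the opposite strand, which was lower as well (-1.14 ± 0.12, adjusted p = 3.1e-05). With LD-F1_b EVs these 3 loci stood at -0.39, -0.33 and -0.77 and were not called. The 2 most abundant of the class, the envelope loci 773 and 323, stood at -0.17 ± 0.09 and -0.19 ± 0.09 with LD-F1 EVs and were not called.

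**Figure D3:**
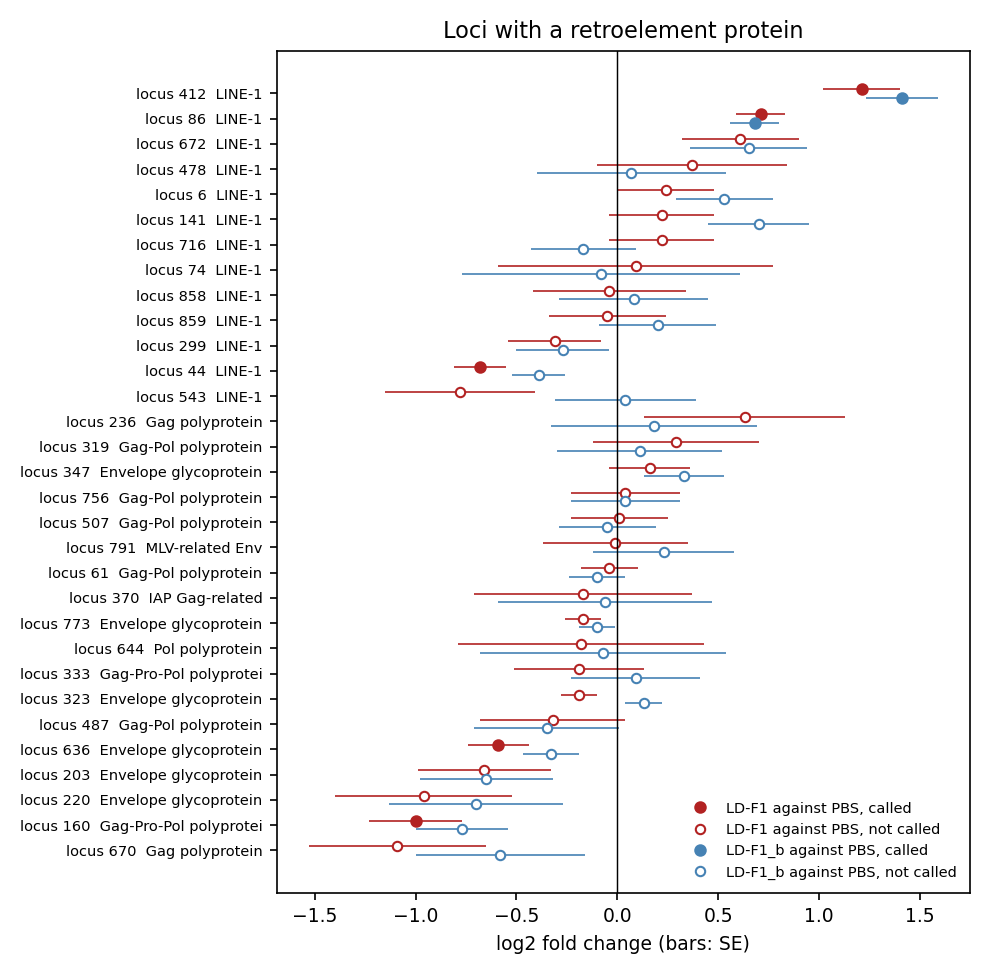
Log2 fold change against PBS (x axis, bars show SE) of the 31 loci with a retroelement protein, with LD-F1 EVs in red and LD-F1_b EVs in blue; filled points were called by edgeR at an adjusted p under 0.05. LINE-1 loci are on top; loci 412 and 86 are filled in both colours on the right, and loci 44, 636 and 160 are filled in red on the left.

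Annotated genes known to restrain retroelements or to sense their products were also called in both directions. Of 25 in the list, 19 were in the table under that symbol and 17 were tested. With LD-F1 EVs 5 were higher and 5 lower (median -0.09), beside 11.4% and 9.87% of all entries tested. With LD-F1_b EVs 3 were higher and 2 lower (median 0.01), beside 6.44% and 4.54%. Dnmt1, the maintenance DNA methyltransferase, fell by 1.0 with LD-F1 EVs (adjusted p = 1.2e-05), Cbx5, which binds silenced chromatin, fell by 0.94, and Trim28, the co-repressor of KRAB zinc fingers, fell by 0.33. Ifih1 and Ddx58, sensors of viral RNA, rose by 1.63 and 1.49. The other called genes of the list with LD-F1 EVs were Daxx (0.60), Zc3hav1 (0.48) and Adar (0.44), which were higher, and Atrx (-0.39) and Mavs (-0.34), which were lower. Whether these levels bear on the loci was not tested.

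With LD-F1_b EVs, 27 loci were higher than with PBS (5.58%, beside 6.44% of all entries tested) and 4 lower (0.826%, beside 4.54%). The comparison shares its PBS libraries with the one above. The median log2 fold change was 0.12 over the loci and 0.01 over all entries. Of the 27, 23 were also among the 50 higher with LD-F1 EVs, and 3 of the 4 lower were among the 17. Nlrc3, Nfkbiz, Sod2 and the LINE-1 loci were among the 27. Calls moved with single libraries. Higher calls were fewer without any 1 LD-F1_b or PBS library and more without any 1 LD-F1 library. Those over all entries tested moved the same way. A fit of only these groups called 53 higher and 16 lower, beside 12.6% and 12.1% of the 12514 entries then tested. Scaling by totals alone gave 23 and 8, and the share higher among all entries called went from 58.7% to 41.7%.

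**Figure D4:**
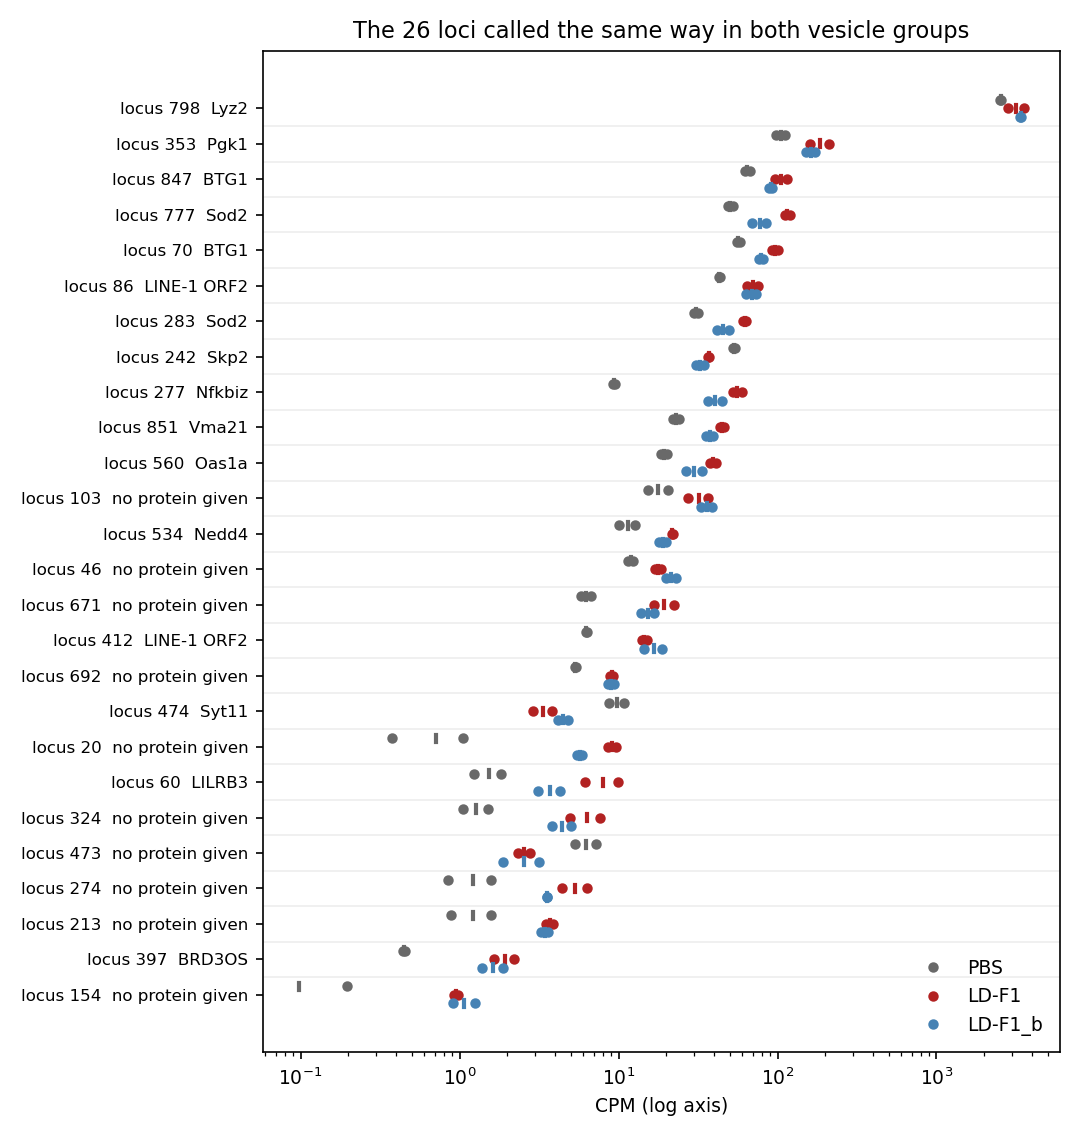
CPM (log axis) of the 26 loci called in the same direction against PBS with LD-F1 and with LD-F1_b EVs, with 1 point per library and a short line at the group mean. In loci 242, 474 and 473 the PBS points (grey) lie to the right of the others and in the other 23 to the left; a PBS library of locus 154 at 0 cannot be shown on this axis.

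The locus that stood out in CPM was 33, which resembles Nlrc3, a sensor described as a brake on NF-kB and STING signalling. It lies on the minus strand of chromosome 1 from 58909911 to 58915187. It had 1356 and 1374 CPM with PBS, 1274 and 1419 with LD-F1 EVs and 2797 and 1811 with LD-F1_b EVs. Both LD-F1_b libraries were above all others, but they were far apart from each other. The change was 0.76 ± 0.17 against PBS (adjusted p = 0.0218), a call lost in a fit of only these groups and without LD-F1_b replicate 1, a PBS library or an LD-F1 library. With LD-F1 EVs it was at -0.02 ± 0.17 (adjusted p = 0.955). The annotated Nlrc3 entry, with 3358 counts against 145990 at the locus, was at -0.09 ± 0.12 with LD-F1_b EVs (adjusted p = 0.699) and lower with LD-F1 EVs (-0.37 ± 0.12, adjusted p = 0.0496).

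Other calls with LD-F1_b EVs mostly repeated loci above. Locus 277 (Nfkbiz), locus 20 and locus 412 have been given. Locus 324 was higher by 1.79 ± 0.35 (adjusted p = 0.00636), with 3.82 and 5.04 CPM against 1.04 and 1.51 (lost without LD-F1_b replicate 2 or PBS replicate 1), and locus 274 by 1.53 ± 0.37 (adjusted p = 0.0193), with 3.55 and 3.52 CPM (lost without either LD-F1_b library or PBS replicate 1). Locus 60 (LILRB3) was higher by 1.27 ± 0.36 (adjusted p = 0.0429), with 3.13 and 4.28 CPM, a call lost with library totals alone and without any 1 PBS or LD-F1_b library. Locus 397 (BRD3OS) was called at 1.84 ± 0.53 (adjusted p = 0.0461) and lost the call in the same settings and with DESeq2. Locus 213, with no protein, had 1.57 and 0.882 CPM with PBS and 3.62 and 3.25 with LD-F1_b EVs (1.48 ± 0.37, adjusted p = 0.0218, lost without either LD-F1_b library or PBS replicate 2). Locus 798 (Lyz2) was called at 0.42 ± 0.10 (adjusted p = 0.02), and without any 1 of the PBS or LD-F1_b libraries it was not.

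Locus 263, an unspliced locus of chromosome 16 between 23206077 and 23210267 with no protein, was called with LD-F1_b EVs and not with LD-F1 EVs. It had 1.89 and 1.32 CPM with PBS, 4.12 and 2.42 with LD-F1 EVs and 4.03 and 5.32 with LD-F1_b EVs. The LD-F1 libraries too lay above those of PBS. The changes were 1.54 ± 0.36 (adjusted p = 0.0171, lost without any 1 PBS or LD-F1_b library) and 1.02 ± 0.37 (adjusted p = 0.0747), and the difference between them, 0.52 ± 0.34, was not called (adjusted p = 0.739). Among the 4 lower loci, locus 474 (Syt11) fell by 1.12 ± 0.23 (adjusted p = 0.00895, lost without either LD-F1_b library or PBS replicate 1), locus 473 fell by 1.3 ± 0.31 (adjusted p = 0.0197, lost without LD-F1_b replicate 1 or PBS replicate 1) and locus 201, with no protein, fell by 0.94 ± 0.26 (adjusted p = 0.0408, lost with DESeq2 and without any 1 PBS or LD-F1_b library); locus 242 (Skp2) is given above.

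Between the EVs themselves, 0 loci were higher with LD-F1_b than with LD-F1 (background 0.0157% of all entries) and 1 was lower (0.207%, beside 0.408%). At an unadjusted p under 0.05 there were 36 in either direction (7.44%, beside 8.78% of all entries tested), and DESeq2 called 0 higher and 1 lower. The 1 locus was 777, the C-terminal Sod2 piece, at 84.8 and 69.3 CPM with LD-F1_b EVs and 120 and 111 with LD-F1 EVs (-0.58 ± 0.11, adjusted p = 0.0491). Its other piece, locus 283, was at -0.45 ± 0.11 (adjusted p = 0.169). The call on 777 ended with library totals alone, with a filter of 1 CPM in 2 libraries, in a fit of only these groups, without robust estimation, and without any 1 PBS or LD-F1_b library. Without LD-F1 replicate 1 there were 6 higher and 13 lower, while 4.52% and 4.13% of the 13325 entries then tested were called. For the other loci a p that misses the threshold does not show that the EVs acted alike: locus 277 differed by -0.46 ± 0.13 (adjusted p = 0.222), locus 60 by -1.11 ± 0.31 (adjusted p = 0.223) and locus 33 by 0.78 ± 0.17 (adjusted p = 0.14).

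Loci were compared with the annotated entry matched, by its symbol or its own description, to the gene name in their description, of which 121 pairs were tested. Across these pairs the log2 fold changes with LD-F1 EVs had Pearson r = 0.382 and Spearman rho = 0.391, and with LD-F1_b EVs r = 0.353 and rho = 0.358; pairs share libraries, some share an annotated entry, and reads may be shared. With LD-F1 EVs, the annotated entry was higher in 28 of the 121 pairs and lower in 5, which left little room for opposite calls among higher loci. Over all entries tested, 11.4% were higher and 9.87% lower. Of the loci, 3 were lower, 1 with a lower entry, and 0 pairs had opposite calls. Higher loci numbered 16, 9 of them with an annotated entry that was higher too. Locus 265 (Csta, a cysteine protease inhibitor) was such a pair, with the entry 2010005H15Rik, at 1.82 ± 0.44 (adjusted p = 0.0106) (lost without either PBS library) beside 1.25 ± 0.22 (adjusted p = 0.00139) for that entry. Locus 179 (Hnrnpk, an RNA-binding protein) was not, at 0.73 ± 0.21 (adjusted p = 0.029, lost with library totals alone, in a fit of only these groups, and without either LD-F1_b library or PBS replicate 2) beside 0.05 ± 0.09 (adjusted p = 0.765).

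**Figure D5:**
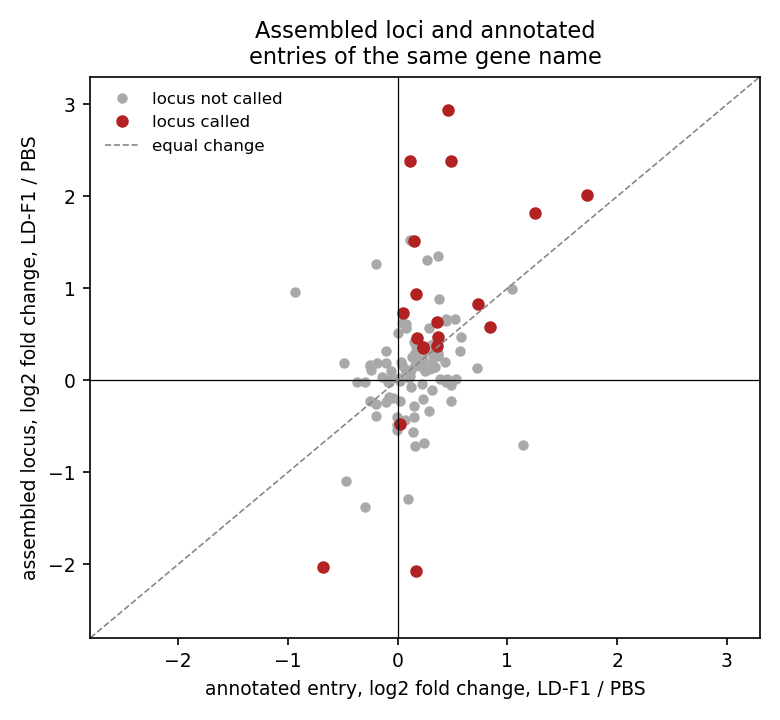
Log2 fold change with LD-F1 EVs against PBS of 121 assembled loci (y axis) and of the annotated entry of the same gene name (x axis); red loci were called by edgeR and the dashed line marks equal change. Of the 16 red loci above 0, loci 429 (Ak4, 2.94), 60 (LILRB3, 2.38) and 2 (Camsap1, 2.38) lie farthest above the line.

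Loci were also compared with their neighbours. For the 152 loci with a tested annotated neighbour within 10 kb, none of which overlapped it, the changes with LD-F1 EVs had r = 0.273 and rho = 0.357. The neighbour was higher in 23 of these 152 pairs and lower in 21. Of the loci, 12 were higher, 3 of them beside a higher neighbour, and 8 were lower, 3 of them beside a lower neighbour. In 2 pairs the calls were opposite (Nfkbiz beside Nxpe3 and BRD3OS beside Brd3). On the same strand (75 pairs) r was 0.305 and on the opposite strand (77 pairs) 0.249. Of the 56 loci on unplaced scaffolds 7 were higher (12.5%) and 0 lower, and of the 428 on chromosomes 43 and 17 (10.0% and 3.97%). Over all entries tested these shares were 11.4% and 9.87%. Spliced and unspliced loci were called at 10.4% and 10.1% higher. Of the 41 loci whose gene name no annotated entry carried, 9 were higher and 4 lower with LD-F1 EVs.

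Within 10 kb of another of the 484 lay 76 loci, in 48 pairs. With LD-F1 EVs, 2 pairs were both higher (the Oas1a loci, and LILRB3 with LINE-1 locus 86), 1 was both lower (473 and 474), 6 had 1 called and 0 had opposite calls. In all, 31 gene names were shared by 94 loci, the most by Pol (18), Env (6) and Nedd4 (6). Of names with 2 loci, both were higher with LD-F1 EVs for Btg1, Oas1a and Sod2.

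Some loci on unplaced scaffolds carried names from a known group. Cd99, Akap17a, Asmtl, Arsl, Sts, Dhrsx, Nlgn4l, Vamp7 and Tmlhe have human counterparts at or near the tips of the X chromosome, and 13 loci on 7 unplaced scaffolds carried these 9 names; 12 of the 13 had a name with no annotated entry. With LD-F1 EVs 2 were higher and 0 lower, beside 11.4% and 9.87% of all entries tested. Locus 838 (Cd99, a surface glycoprotein of leukocyte migration) had 220 and 200 CPM with PBS and 284 and 325 with LD-F1 EVs (0.54 ± 0.12, adjusted p = 0.00833, lost without either LD-F1 library or PBS replicate 2). Locus 797 (Arsl, a sulfatase) had 31.3 and 26.9 CPM with PBS and 36.7 and 54.1 with LD-F1 EVs (0.64 ± 0.18, adjusted p = 0.0218), lost in a fit of only these groups and without LD-F1 replicate 2 or either PBS library. With LD-F1_b EVs 0 of the 13 were called, beside 6.44% higher and 4.54% lower over all entries tested.

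At the limit of 60 counts, loci 154, 810 (Tmlhe) and 526 (Sfi1) had 60 counts each and loci 489, 230 and 864 had 59. Locus 154 had 3 and 0 counts with PBS, 13 and 13 with LD-F1 EVs and 13 and 18 with LD-F1_b EVs. It was called in both comparisons, at 3.19 ± 0.92 (adjusted p = 0.0281) and 3.37 ± 0.90 (adjusted p = 0.0319), the latter the largest change called with LD-F1_b EVs. Without PBS replicate 1 these values were 6.79 and 6.96, and without PBS replicate 2 they were 2.23 and 2.40. The LD-F1 call ended in a fit of only these groups and without PBS replicate 2 or either LD-F1_b library, and the LD-F1_b call without any 1 PBS or LD-F1_b library. Locus 489 had 25 and 9 counts with PBS, 9 and 7 with LD-F1 EVs and 2 and 7 with LD-F1_b EVs. Counts this low leave fold changes with wide errors.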

How the data were processed

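RNA-seq libraries of 6 samples in 3 groups of 2 were analysed. The deposited table holds whole-number read counts per gene that the authors did not normalise. Tools named in the submitters' processing notes are fastp, StringTie 1.3.3b for assembly, featureCounts 1.5.0-p3 for counting and HISAT2 2.0.5 for alignment. The notes name GRCm39, while identifiers and positions in the table are those of C57BL/6NJ. Whether the counting used strand could not be found in the labels. All columns with counts matched a sample. Entries were kept by edgeR's filterByExpr (12740, with 99.89% to 99.92% of counts) and tested in 1 fit of all 6 libraries with TMM factors and the robust quasi-likelihood F test (edgeR 4.0.16, R 4.3.3), adjusted by Benjamini-Hochberg. SE is the log2 fold change divided by the root of F. On simulated counts for LD-F1 against PBS over 12740 entries, 28 of 67 changes of 1.5-fold, 50 of 67 of 2-fold and 61 of 66 of 4-fold were called, with 7 false calls among 12540.

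Loci, lists and tests were chosen with earlier results of these data known. Named loci are the 10 with the highest mean CPM; per comparison the 8 with the highest and the 8 with the lowest log2 fold change among those called, with at least 1 CPM on average and no overlap; called retroelement and immune loci, at most 8 per class and comparison; and 3 on each side of the count limit. Loci 28, 70, 179, 265, 283, 329, 353, 361, 388, 400, 534, 559, 750, 797, 838, 847 and 851, the X-tip names, the NAIP split, the promoters and the comparison by gene name were chosen after values were seen, where no part of the rule names them. Alternatives were DESeq2 1.42.0, other scaling and filters, only the groups compared, no robust estimation, the replicate number as a block, and leaving out each library. Promoters and motifs come from RefSeq (GRCm38.p6). Sequences of the loci themselves are not printed, since no genome of their build was used.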

Additional observations from a re-analysis of the deposited data

Results flagged for a closer look

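Locus 777, the C-terminal Sod2 piece, differed between the EVs: its change against PBS was smaller with LD-F1_b than with LD-F1 EVs, by -0.58 on the log2 scale (tested directly by edgeR, adjusted p = 0.0491; both LD-F1_b libraries were below both LD-F1 libraries). The call was lost in 4 of 8 other settings and on leaving out 4 of 6 single libraries. Among assembled loci with fewer than 60 counts, which the counts of calls above leave out, 3 of the 43 tested (6.98%, beside 11.4% of all entries) were called higher with LD-F1 EVs than with PBS, in the same fit and adjustment; the other loci of the 392 were not tested.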

How the results depend on the processing

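Calls over the 484 loci with LD-F1 EVs moved to 10 lower with DESeq2 and 27 lower with library totals alone. The shares lower over all entries tested were then 9.5% and 15.2%, beside 9.87% in the main fit. With LD-F1_b EVs, calls over the loci moved to 53 higher and 16 lower in a fit of only the groups compared. They moved to 8 lower with library totals alone and 9 with no filter. Over all entries tested, the fit of only those groups called 12.6% higher and 12.1% lower. Library totals alone and no filter called 6.91% and 3.64% lower, beside 4.54% in the main fit. Between the EVs, no filter gave 2 higher and 5 lower, beside 0.216% and 0.616% of all entries then tested. Library totals alone, the filter of 1 CPM in 2 libraries, only the groups compared and no robust estimation gave 0 lower. Without single libraries, the ranges were 20 to 71 higher and 6 to 30 lower (LD-F1 EVs), 5 to 56 and 2 to 17 (LD-F1_b EVs), and 0 to 6 and 0 to 13 (between the EVs); the lone sample of a group was then assumed to vary like the others. Calls over all entries tested moved with single libraries too. The causes of these moves were not tested. Of 50 and 17 calls with LD-F1 EVs, 18 and 3 held under all alternatives run, and of 27 and 4 with LD-F1_b EVs, 4 and 1; 0 reversed. The share of counts was 1.93% to 2.00% (LD-F1), 2.08% to 2.21% (LD-F1_b) and 1.86% to 1.88% (PBS) in single libraries, and 0.875%, 0.859% and 0.811% without the 5 most abundant loci. With all assembled loci it stayed within 1 SD, and counts were within 1.5 times with loci of at least 120 counts.

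Same-numbered replicates shared only a number (correlations of deviations 0.0837, -0.0234 and 0.00358). With the number as a replicate block, 50 higher and 16 lower (LD-F1 EVs), 26 and 5 (LD-F1_b EVs), and 0 and 1 (between the EVs) were called. Under it the calls on locus 826 (LD-F1 EVs) and on loci 60, 397 and 201 (LD-F1_b EVs) were not made. The comparison with overlapping neighbours only was not run, since 1 locus overlaps one and that entry was not tested. The limit of 3 counts, 0.189 to 0.225 CPM, bounds the lowest loci.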

Other observations

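Replicates differed in how closely they agreed over the 484 loci. The correlation of log2 CPM between the 2 libraries was 0.959 with LD-F1 EVs, 0.964 with LD-F1_b EVs and 0.973 with PBS, and the chi-square per degree of freedom of their counts was 11.8, 10.9 and 3.12. The difference between the LD-F1 libraries was related to locus length with a Spearman rho of 0.230 over the 484 loci, against 0.066 and 0.054 in the other groups.

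Some gene names were shared by several loci. The 4 loci with a description of zinc finger protein 431 ranged from -0.40 to 1.51 with LD-F1 EVs with 1 higher, and the 3 of LILRB3 from -0.23 to 2.38 with 1 higher. The 3 loci described as glyceraldehyde-3-phosphate dehydrogenase, an enzyme of glycolysis, ranged from -0.10 to 0.19 with 0 called.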
